A study of Mus musculus with 12 samples.

Results

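Germ cells of the mouse testis at E13.5 were compared with the somatic cells around them, in 6 RNA sequencing libraries of a series of 12. The 6 are the 3 libraries of male primordial germ cells (PGCs, the precursors of sperm) and the 3 of male gonadal soma, and they were chosen by their labels, not by any measured value. All embryos came from Oct4GFP males mated to females, with the strain given as Oct4GFPxICR. Gonads were dissected at E13.5 and sorted by flow cytometry, so that PGC libraries hold the cells positive for the Oct4 reporter and soma libraries the cells negative for it. Both groups carry the reporter, and none of the labels names a mutation or a treatment. The soma is therefore every GFP-negative cell of the isolated gonad, not one cell type. Labels number the replicates but do not say whether they are separate embryos, litters or pools, so the p-values here measure only the spread between libraries. External ERCC spike-in RNA was added in a fixed amount for a fixed number of cells. The authors' 2 tables hold log2 expression of the same 12845 genes, one scaled to cell number and the other to read depth, and counts of genes are given on both scales. The first scale asks how much of a transcript a cell held, and the second how large a share of the sequenced RNA it was.

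By E13.5 the gonad of an XY embryo has become a testis. Sertoli cells surround the germ cells in cords, fetal Leydig cells between the cords make androgens, and both send signals to the germ cells. Male germ cells at this stage still express genes of pluripotent cells and switch on a male programme led by Nanos2. They leave the cell cycle around this stage instead of entering meiosis. They also lose DNA methylation genome-wide up to about this stage, and prepare the small RNA pathway that silences transposons before birth.

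The libraries held 9154062 to 24791414 reads assigned to the measured genes, recovered as whole numbers from the cell number table, and the median gene had 334 to 894 reads. Replicates of a group differed beyond sampling noise in each of the 6 pairs (chi-square per degree of freedom 10.1 to 31.0), so none was merged. In the cell number table, the median gene stood at 5.88, 5.81 and 5.81 (log2) in PGC replicates 1, 2 and 3, and at 4.33, 4.29 and 5.25 in soma replicates 1, 2 and 3. Soma replicate 3 stood apart from the other soma libraries on this scale, and counts per cell are also given without it where they change. In the read depth table it did not stand apart, with soma medians of 8.82, 8.81 and 8.80 against 8.58, 8.56 and 8.56 in PGCs.

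The median transcript was 2.31-fold more abundant per cell in male PGCs than in male soma, a difference of 1.21 ± 0.316 log2 units (SE, n = 3 libraries in each group). The groups did not overlap. The exact two-sided permutation test gave p = 0.1, the smallest value that 3 libraries against 3 allow. Without soma replicate 3 the difference was 1.52 ± 0.0343, or 2.88-fold, and the smallest possible exact p was then 0.2. By read depth the order was the reverse, with the PGC medians 0.246 ± 0.00777 log2 units below those of soma (exact permutation p = 0.1).

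**Figure D1:**
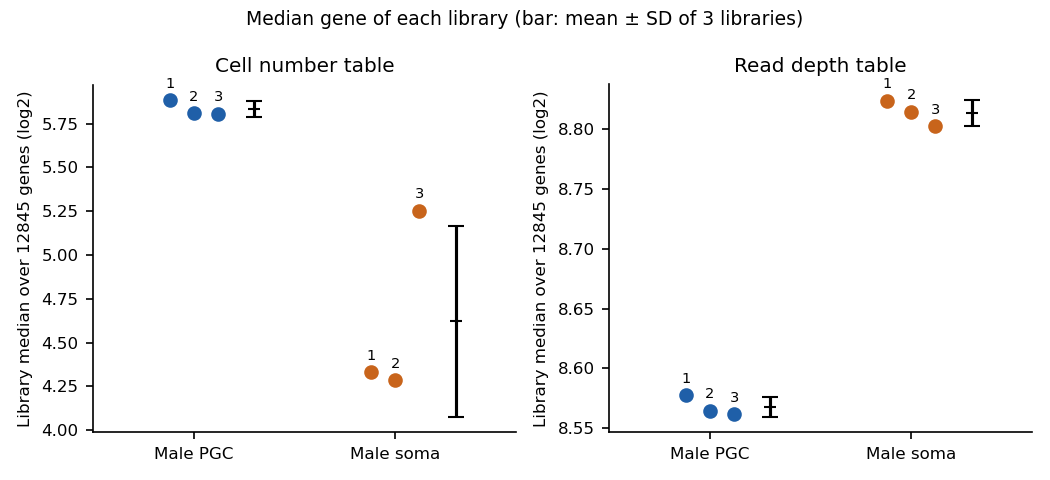
Median log2 value over 12845 genes in each of the 6 libraries, in the cell number table (left) and the read depth table (right), with different vertical ranges. Points are libraries labelled by replicate number and the bars give mean ± SD of 3 libraries; PGCs stand above soma per cell, with soma replicate 3 at 5.25 between them, and below soma by read depth.

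Per cell, 7843 of the 12845 genes were higher in PGCs (61.1%) and 2383 lower (18.6%), with a median difference of 1.42 log2 units over all genes (limma, adjusted p under 0.05). Without soma replicate 3 the counts were 9062 higher (70.5%) and 2250 lower (17.5%), and the median was 1.74. By read depth 5057 genes were higher (39.4%) and 5618 lower (43.7%), with a median of -0.06. Groups did not overlap by read depth for 40.3% of genes with PGCs above soma and 44.7% with PGCs below. Per cell these shares were 61.4% and 19.7%, so a lack of overlap was common. Centring each library on its own median turned the per-cell split into 5944 higher and 4771 lower, and moved the median of all genes to 0.21. The read depth balance also turned, to 6172 higher and 4640 lower with median centring (median 0.19) and to 6066 and 4552 with quantile normalization (median 0.16). With all 6 libraries the variance model of the per-cell fit gave every gene at a level the same spread. Its prior degrees of freedom were infinite, against 5.36 without soma replicate 3. The per-cell calls and SE of genes rest on this shared spread, not on each gene's own, and the p-values are not printed. With each gene's own variance, 7223 genes were higher and 1991 lower per cell.

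The 2 scales sorted the genes into a few classes. All 5057 genes higher by read depth were also higher per cell, and 2382 genes were lower on both scales. A further 1988 were higher per cell with no call by read depth, and 2438 were lower by read depth with no call per cell. Another 798 were higher per cell and lower by read depth, a class that grew to 1922 genes without soma replicate 3. No gene was lower per cell and higher by read depth. Both scales describe the same libraries, and total reads scaled to cell number were 1.63 log2 units higher in PGCs. A shift of that size puts genes higher by read depth above 0 per cell too, so this nesting follows from the scaling. A call on both scales is therefore not 2 separate pieces of support. The genes in neither call numbered 181, and Chgb was the 1 gene called lower per cell alone, through soma replicate 3 (its values are with the other observations).

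**Figure D2:**
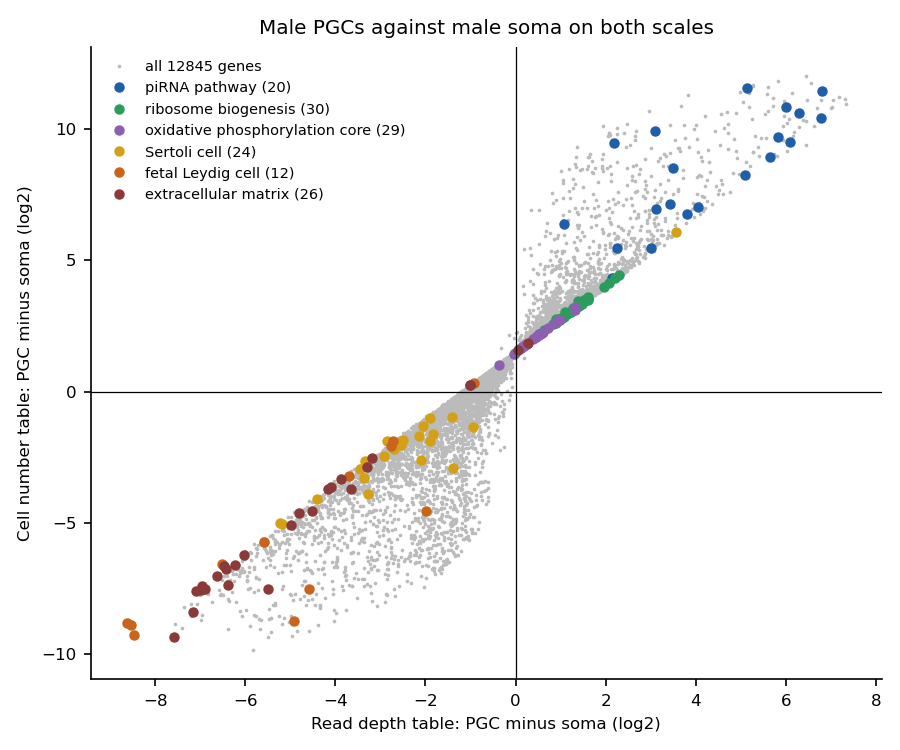
Difference between male PGCs and male soma for each of 12845 genes, by read depth (horizontal, log2) and per cell (vertical, log2), with 6 gene lists in colour. Most genes near 0 by read depth lie above 0 per cell; ribosome biogenesis genes lie above 0 on both axes, and Leydig and matrix genes lie mostly below 0 on both.

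Of the 798 genes higher per cell and lower by read depth, the 6 with most reads were Actg1, Calr, Ctnnb1, Ftl1, Hspa5 and Maged1. Ctnnb1, which encodes beta-catenin, stood at 967, 880.1 and 934 CPM (the gene's reads scaled to the library's total) in PGC replicates 1 to 3 and at 1176, 1185 and 1234 in soma replicates 1 to 3. It was lower by 0.20 ± 0.05 by read depth and higher by 1.25 ± 0.38 per cell (log2 difference ± SE of the limma fit, 3 libraries in each group). Differences in the text that follows are by read depth unless they are said to be per cell. The SE per cell is the spread shared by genes at a level. Hspa5, a chaperone of the endoplasmic reticulum, was at -0.36 ± 0.05 by read depth and 1.06 ± 0.37 per cell, and the calcium-binding chaperone Calr at -0.58 ± 0.06 and 0.79 ± 0.37. Actg1, Ftl1 and Maged1 followed the same pattern, with -0.25 ± 0.06, -0.54 ± 0.07 and -0.18 ± 0.07 by read depth and 1.19 ± 0.39, 0.84 ± 0.38 and 1.28 ± 0.38 per cell. Their directions turned with the scaling: after median centring of the cell number table Hspa5, Calr, Actg1 and Ftl1 fell below 0, and centring the read depth table put Ctnnb1 and Maged1 above 0.

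The sorted fractions carried the transcripts of their labels. Pou5f1 encodes Oct4, whose reporter was used for the sort (chromosome 17, 35506018 to 35510772, GRCm38 with GENCODE vM21, ENSMUSG00000024406.16). It was at 782, 754 and 739.7 CPM in PGCs and 1.53, 0.565 and 1.14 in soma. Nanos2, which binds RNA and drives the male fate of germ cells (chromosome 7, 18987400 to 18988962, ENSMUSG00000051965.8), was at 81.0, 38.5 and 75.1 CPM in PGCs and 0.109, 0.0403 and 0.489 in soma. Sox9, the transcription factor that directs Sertoli fate (chromosome 11, 112782224 to 112787760, ENSMUSG00000000567.5), stood at 6.84, 5.33 and 2.94 CPM in PGCs and 62.4, 63.0 and 77.9 in soma. Cyp17a1, an androgen-making enzyme of Leydig cells (chromosome 19, 46667165 to 46673172, ENSMUSG00000003555.8), stood at 1.58, 0.451 and 2.65 in PGCs and 1968, 1335 and 1955 in soma. For each of the 4 genes the groups did not overlap. The same held by read depth for 40.3% of all genes with PGCs above soma and 44.7% with PGCs below. The read depth differences of the 4 genes were 7.31 ± 0.17, 6.62 ± 0.40, -2.69 ± 0.19 and -8.62 ± 0.36 (adjusted p = 4.79e-10, 1.47e-07, 4.02e-07 and 1.14e-08, limma). Pou5f1 was itself the basis of the sort, so its difference checks the gate.

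**Figure D3:**
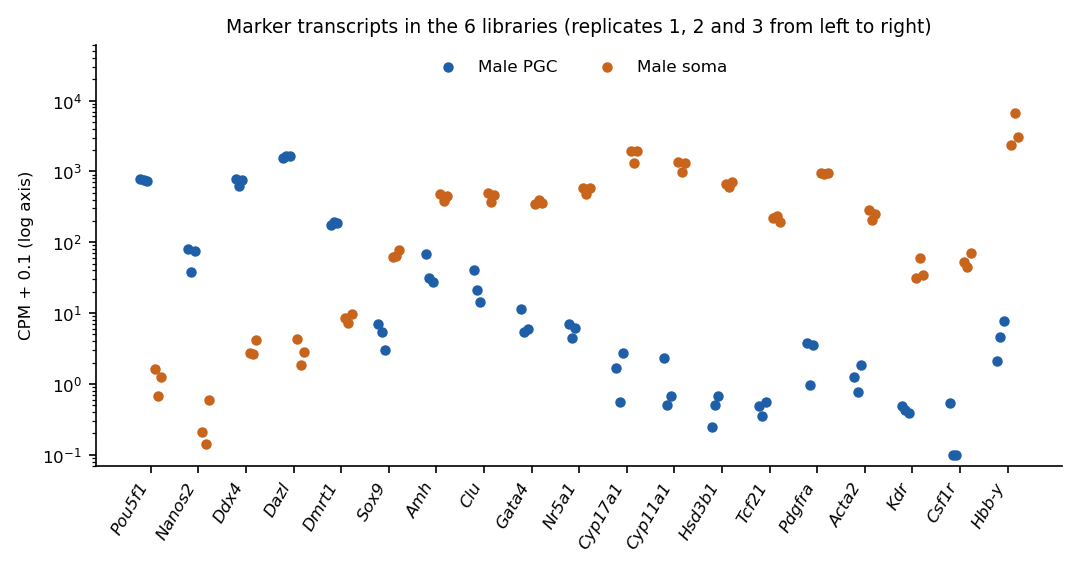
CPM of 19 marker genes in the 6 libraries on a log axis, with 0.1 added to each value; blue points are male PGC and orange points male soma libraries. Germ cell genes are high in all 3 PGC libraries, and Leydig, stromal, blood and macrophage genes are low there. Of the Sertoli genes, Amh (27.7 to 67.6 CPM in PGCs) and Clu lie in between, while Sox9 is in the range of the blood gene Hbb-y.

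The PGC libraries held somatic transcripts at different shares of their soma level. The median gene of the Leydig list was at 0.486% of its soma level in PGCs, that of the stromal list at 0.765%, of the macrophage list at 0.656% and of the erythroid list at 0.112%. For 23 Sertoli genes, with the germ cell gene Dmrt1 left out, the median was 7.43%. The small lists of coelomic epithelium, pregranulosa and mesonephric genes stood higher, at medians of 16.3%, 15.9% and 7.81%. PGC replicate 1 was the highest of the PGC libraries for 19 of the 24 Sertoli genes, against 35.5% of all genes. It was also the highest for 10 of 15 macrophage genes and for 14 of 20 genes of the piRNA pathway, which belongs to germ cells. The 23 Sertoli genes summed to 253, 128 and 122 CPM in PGC replicates 1, 2 and 3 and to 3589, 3257 and 3575 in soma. Amh, the hormone that removes the female duct, was at 67.6, 30.6 and 27.7 CPM in PGCs against 479, 385 and 446 in soma, and Clu, a secreted chaperone, at 40.2, 20.9 and 14.3 in PGCs against 493, 369 and 457 in soma. Not every gene of the list was at such a share, as Inha, the inhibin alpha subunit, stood at 3.35, 1.64 and 2.15 CPM in PGCs against 429.6, 320 and 386 in soma. The source of these reads was not tested.

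Genes of germ cell identity and pluripotency had the highest median of the 29 lists on both scales. The lists were chosen with earlier results of these data known, so this rank is no test. All 27 measured members were higher on both scales, against 39.4% of all genes by read depth and 61.1% per cell, with medians of 5.17 by read depth and 9.75 per cell. Dazl, an RNA-binding protein that licenses germ cell development, was at 1523, 1650.4 and 1644 CPM in PGCs and 4.15, 1.73 and 2.72 in soma. Ddx4, the germ cell RNA helicase, was at 772, 628 and 749.8 in PGCs and 2.62, 2.58 and 4.08 in soma. Dppa3, which protects methylation in the early embryo, was at 951, 804 and 919 in PGCs and 2.62, 0.686 and 1.36 in soma. The 3 PGC libraries were close together for these genes, and far above every soma library. Of the transcription factors of pluripotent cells, Sox2 had 164, 181 and 164 CPM in PGCs against 0.109, 0.323 and 0.218 in soma (read depth 6.48 ± 0.11), and Nanog had 94.3, 110.5 and 95.9 in PGCs against 0, 1.21 and 0.653 in soma (5.31 ± 0.28). Zfp42, also called Rex1, was at 83.7, 92.3 and 69.6 in PGCs against 0, 0.202 and 0 in soma. Kit, the receptor for the survival signal Kitl, was the smallest per-cell difference of the list, at 3.03 ± 0.37 (143, 241 and 186 CPM in PGCs, 57.6, 76.4 and 79.3 in soma).

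The male germ cell programme was transcribed in all 3 PGC libraries. All 10 measured genes were higher on both scales, with medians of 3.57 by read depth and 8.83 per cell. The shares of all genes that were higher were 39.4% and 61.1%. Nodal and its co-receptor gene Tdgf1, which act upstream in the male programme, stood at 29.7, 34.3 and 30.0 (Nodal) and at 9.32, 15.4 and 9.54 (Tdgf1) CPM in PGCs. Tdgf1 had 0 reads in all 3 soma libraries, which makes it at least 199-fold higher in PGCs when 3 reads over the soma group are taken as the limit of a 0 (a limit of counting error only). Lefty1, a feedback inhibitor of Nodal, stood at 80.4, 140.4 and 92.7 in PGCs against 3.50, 1.86 and 3.53 in soma, and Lefty2 at 116, 182 and 129 in PGCs against 46.1, 28.9 and 44.6 in soma. The 2 Lefty genes are near copies, so reads may be shared between them. Morc1, a silencer of transposons, was at 97.4, 44.8 and 77.4 in PGCs against 0, 0.121 and 0.163 in soma.

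The piRNA pathway, which loads small RNAs on PIWI proteins to silence transposons, was higher as a whole. All 20 measured genes were higher by read depth (beside 39.4% of all genes) and per cell (beside 61.1%), at medians of 3.92 and 8.72. Of the PIWI proteins, Piwil2 was at 446, 264 and 430 CPM in PGCs against 2.62, 1.77 and 2.66 in soma, and Piwil4, the nuclear member, stood at 56.6, 15.1 and 33.8 in PGCs against 1.09, 0.403 and 0.598 in soma. The Tudor domain gene Tdrd5 was at 568, 370.1 and 535, its relative Tdrd9 at 49.0, 9.39 and 28.1, and the RNA helicase gene Mov10l1 at 297, 243 and 255. Mael, a piRNA biogenesis factor, was at 264, 169 and 215 in PGCs against 0.765, 0.0807 and 0.870 in soma (read depth 6.30 ± 0.29). The PGC replicates differed several-fold for Tdrd9 and Piwil4, and replicate 2 was the lowest for both.

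Most genes of meiotic prophase were higher too, although male germ cells of this stage are not in meiosis. Of 27 measured genes 24 were higher by read depth and none lower, beside 39.4% and 43.7% of all genes, with a median of 2.72. Per cell 25 were higher (26 without soma replicate 3), beside 61.1% of all genes. Mei1, Msh5 and Prdm9 were the 3 outside the read depth call, at 0.02 ± 0.19, -0.11 ± 0.18 and -0.28 ± 0.24. The cohesin genes Smc1b and Stag3 reached 169, 181 and 219.8 (Smc1b) and at 342, 331 and 335 (Stag3) CPM in PGCs, and the chromosome axis gene Hormad1 reached 65.9, 61.4 and 66.2. Stra8, the retinoic acid target that starts meiosis, was low in reads at 4.40, 0.943 and 4.18 CPM in PGCs against 0.109, 0.0807 and 0.163 in soma, and it passed the threshold at 2.39 ± 0.36 (limma, adjusted p = 0.000136). The recombination gene Dmc1 was at 11.9, 13.2 and 8.19 in PGCs against 5.13, 4.80 and 6.20 in soma, and the group difference was 0.79 ± 0.15. For both genes each PGC library lay above each soma library, as it did by read depth for 40.3% of all genes.

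Promoters of 2 of these germ cell genes and of 2 Leydig genes described later are shown. Germ cells lose methylation of the dinucleotide CG up to about this stage. Sequences are from RefSeq (GRCm38.p6), 250 bases before to 50 after the start, written along the gene's own strand with each CG in capitals. Dazl and Mael are examples of genes high in PGCs, and Hsd3b1 and Insl3 of Leydig genes, and they do not stand for all such genes.
Dazl (chr17:50293571-50293870, minus strand): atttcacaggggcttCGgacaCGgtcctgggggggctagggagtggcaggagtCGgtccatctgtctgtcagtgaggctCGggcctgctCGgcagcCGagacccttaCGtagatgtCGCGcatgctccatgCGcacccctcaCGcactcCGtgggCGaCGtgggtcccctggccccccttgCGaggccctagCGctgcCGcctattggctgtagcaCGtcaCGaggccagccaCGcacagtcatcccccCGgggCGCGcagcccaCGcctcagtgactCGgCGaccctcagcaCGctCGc
Mael (chr1:166238695-166238994, minus strand): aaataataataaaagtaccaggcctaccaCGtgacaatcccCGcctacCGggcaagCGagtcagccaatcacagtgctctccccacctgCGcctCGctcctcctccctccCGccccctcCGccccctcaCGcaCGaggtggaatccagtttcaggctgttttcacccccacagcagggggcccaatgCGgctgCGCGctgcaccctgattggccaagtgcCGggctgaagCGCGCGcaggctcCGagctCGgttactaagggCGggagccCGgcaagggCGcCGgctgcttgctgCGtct
Hsd3b1 (chr3:98859745-98860044, minus strand): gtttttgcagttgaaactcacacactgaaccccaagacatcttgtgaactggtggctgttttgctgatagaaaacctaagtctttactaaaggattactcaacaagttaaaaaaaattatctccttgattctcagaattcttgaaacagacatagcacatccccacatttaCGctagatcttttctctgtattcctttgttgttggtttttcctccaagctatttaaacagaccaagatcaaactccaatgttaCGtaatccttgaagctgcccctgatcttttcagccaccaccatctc
Insl3 (chr8:71689002-71689301, plus strand): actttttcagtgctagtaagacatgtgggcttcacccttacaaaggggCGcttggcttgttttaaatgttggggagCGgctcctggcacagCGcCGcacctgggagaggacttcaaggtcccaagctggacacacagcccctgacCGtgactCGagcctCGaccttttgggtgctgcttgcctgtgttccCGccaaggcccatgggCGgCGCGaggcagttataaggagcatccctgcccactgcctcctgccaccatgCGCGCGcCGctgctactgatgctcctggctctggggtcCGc
The windows hold 28 CG in Dazl, 24 in Mael, 2 in Hsd3b1 and 16 in Insl3. Of all 27025 genes with a promoter in the RefSeq table, 14.01% had at least as many as Dazl, 20% as Mael, 85.4% as Hsd3b1 and 33.5% as Insl3. The median of those 27025 genes was 7 CG, and the shares do not rank the windows among measured genes. Other genes high in PGCs varied, with 0 CG in the window of Nanos2, 11 in that of Pou5f1 and 38 in that of Ddx4. Lists with a promoter for under 80% of their genes, such as the male programme and the Leydig list, are not summarised. Of the others, the piRNA pathway (17 of 20 genes) had a median of 20 CG, meiotic prophase (23 of 27) 16, and ribosome biogenesis (25 of 30) 19. Medians were 24 for proliferation (19 of 22), 28 for histone and heterochromatin modifiers (17 of 18) and 25 for DNA methylation (8 of 8). Apoptosis (12 of 14) had 27, niche receptors (22 of 27) 21.5 and glycolysis (16 of 17) 19. The 10227 measured genes with a promoter had a median of 21, but they are 79.6% of the 12845, so the comparison with all measured genes is void. The data hold no methylation values, and the counts describe letters only.

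Genes of proliferation were mostly higher in PGCs at this stage. Per cell all 22 were higher, beside 61.1% of all genes, with a median of 2.38 against 1.42 over all genes. By read depth 15 were higher and none lower, beside 39.4% and 43.7%, with a median of 0.69 against -0.06. Top2a, a topoisomerase of dividing cells, was at 936, 1189 and 881 CPM in PGCs and 378, 411 and 392 in soma (read depth 1.17 ± 0.09). Ccnb1, the mitotic cyclin B1, was at 501, 575 and 473 in PGCs and 87.3, 115 and 103 in soma, and the spindle checkpoint kinase gene Bub1 at 316, 315 and 314 in PGCs and 52.9, 67.2 and 57.5 in soma. Groups did not overlap for these 3 genes, and PGCs lay wholly above soma by read depth for 40.3% of all genes. Mki67, the marker of cycling cells, was at 214, 402 and 284 in PGCs and 408, 411 and 434 in soma, and its read depth difference of -0.32 ± 0.14 did not pass the threshold (limma, adjusted p = 0.0596). Per cell Mki67 was higher by 1.10 ± 0.37, a sign that turned with median centring.

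Regulators of the G1 phase went both ways, at shares near those of all genes. By read depth 6 of 20 were higher and 10 lower (8 and 8 after median centring), beside 39.4% and 43.7% of all genes. Per cell 13 were higher and 3 lower, beside 61.1% and 18.6%. Rb1, the retinoblastoma protein that holds cells in G1, was at 118, 97.5 and 128 CPM in PGCs and 17.4, 17.3 and 19.8 in soma (2.09 ± 0.09), whereas its relative Rbl2 was at 5.83, 3.61 and 6.15 in PGCs and 44.8, 45.5 and 46.2 in soma (-2.08 ± 0.13). Ccnd2, a D-type cyclin, was at 12.9, 4.92 and 13.4 CPM in PGCs against 365, 389.7 and 386 in soma, and lower on both scales (-4.04 ± 0.22 by read depth, -3.70 ± 0.39 per cell). Cyclins Ccnd1 and Ccnd3 were lower by read depth (-1.58 ± 0.08 and -1.44 ± 0.10) and had no call per cell. Among inhibitors, Cdkn2a stood at 34.6, 32.2 and 23.1 in PGCs against 0.109, 0.161 and 0 in soma, Cdkn1a at 22.7, 25.5 and 23.2 in PGCs against 6.23, 9.72 and 10.1 in soma and Cdkn1c at 82.8, 59.6 and 76.6 in PGCs against 533, 449.6 and 507 in soma. Cdkn1b, which encodes p27, was at 43.7, 37.5 and 53.4 CPM in PGCs and 58.1, 62.6 and 62.2 in soma, and was lower by read depth (-0.26 ± 0.10) and higher per cell (1.17 ± 0.39), where median centring turned the sign to -0.04.

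The PGC libraries were not alike in these 2 programmes. PGC replicate 2 was the lowest of the PGC libraries in the read depth table for 19 of 20 piRNA genes and the highest for 21 of 22 proliferation genes. Over all genes it was the lowest for 40.0% and the highest for 36.5%. Nanos2 was at 38.5 CPM in replicate 2 against 81.0 and 75.1, and Tdrd9 at 9.39 against 49.0 and 28.1, while Rrm2, which makes DNA precursors, was at 112.1 against 44.1 and 51.9. The homeobox genes Rhox6 and Rhox9 of early germ cells stood at 1.77, 13.454 and 2.43 (Rhox6) and at 4.88, 21.9 and 5.03 (Rhox9) CPM and were also highest there. This pattern was chosen after the values were seen. Summed reads of the Sertoli genes without Dmrt1 were 128 CPM in that library, between 122 in replicate 3 and 253 in replicate 1. Without PGC replicate 2, 5072 genes were higher and 5627 lower by read depth, near the counts with it.

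**Figure D4:**
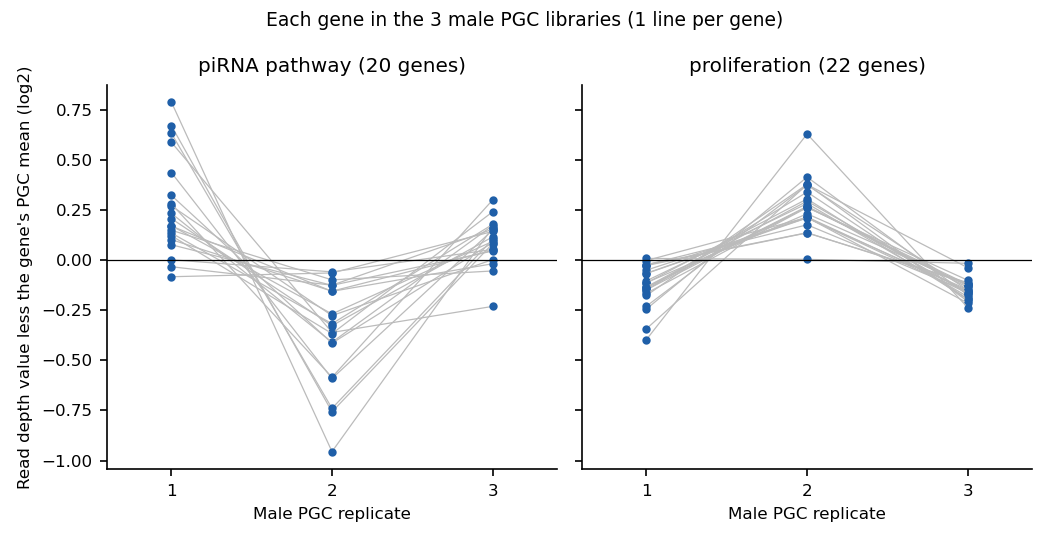
Read depth value of each piRNA pathway gene (left, 20 genes) and proliferation gene (right, 22 genes) in the 3 male PGC libraries, less that gene's mean over them (log2), with 1 line per gene. Replicate 2 is the lowest for 19 of 20 piRNA genes and the highest for 21 of 22 proliferation genes.

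Machinery for making ribosomes was higher in PGCs on both scales throughout. All 30 ribosome biogenesis genes passed the threshold, with medians of 1.28 by read depth and 3.17 per cell, against -0.06 and 1.42 over all genes. Over all genes 39.4% were higher by read depth and 61.1% per cell. Nucleolin (Ncl), which coats nascent ribosomal RNA, was at 2189, 2153 and 2130.1 CPM in PGCs and 675, 639.7 and 671 in soma, and fibrillarin (Fbl), which methylates it, at 427, 431 and 420.2 in PGCs and 125, 107 and 114 in soma. Rrp12, a factor of small subunit export, and Nhp2, a component of small nucleolar particles, were higher by 2.29 ± 0.09 and 2.20 ± 0.10. The groups did not overlap for any of the 4, beside 40.3% of all genes with PGCs wholly above soma by read depth. Of 78 cytosolic ribosomal protein genes, 74 were higher by read depth and none lower, and all 78 were higher per cell. They took up 70475, 68989.7 and 67858 CPM in PGCs against 42430.1, 40366 and 36658.5 in soma. The germ line paralog Rpl39l was at 60.5, 52.5 and 57.8 in PGCs against 0, 0 and 0.109 in soma, where reads from its near copy could be shared.

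RNA polymerase II and its elongation factors followed, with 26 of 29 higher by read depth, 1 lower and a median of 0.73. Per cell all 29 were higher, at a median of 2.48. Among all genes 39.4% were higher and 43.7% lower by read depth, and 61.1% were higher per cell. Polr2b, a catalytic subunit, was at 403, 355 and 383 CPM in PGCs and 111, 115 and 114 in soma, and Polr2e, a shared subunit, at 216, 255 and 214 in PGCs and 68.4, 62.3 and 61.2 in soma. Elongation factors of the FACT and PAF complexes, Supt16 and Ctr9, were higher by 1.38 ± 0.06 and 1.33 ± 0.07. Each of these genes was higher in every PGC library than in any soma library, as were 40.3% of all genes by read depth. Aff4, a scaffold of the super elongation complex, was the 1 gene lower by read depth (-0.55 ± 0.06), and Paf1 and Leo1 stood at 0.01 ± 0.06 and -0.01 ± 0.08. Chd1, a remodeller that acts with elongation, was at 0.25 ± 0.10 (limma, adjusted p = 0.0405).

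Chromatin genes were mixed. Of 18 histone and heterochromatin modifiers, 12 were higher by read depth and 3 lower, beside 39.4% and 43.7% of all genes, with a median of 0.85. Per cell 17 were higher (18 without soma replicate 3), beside 61.1% of all genes. Hells, a remodeller needed for methylation of repeats, was at 580.4, 676 and 569 CPM in PGCs and 61.4, 64.0 and 55.4 in soma, the largest difference of the list at 2.73 ± 0.08. Trim28 and Setdb1, which silence retrotransposons together, were higher by 1.11 ± 0.06 and 1.01 ± 0.06, and the lysine methyltransferase Suv39h2 by 1.79 ± 0.09. Ehmt1, Kdm6b and Cbx5 were lower by read depth (-0.44 ± 0.07, -0.76 ± 0.09 and -0.29 ± 0.07). Of 8 DNA methylation genes, 2 were higher by read depth and 5 lower (3 and 3 after median centring), beside 39.4% and 43.7% of all genes. Per cell 5 were higher and 1 lower, beside 61.1% and 18.6%, or 6 and 1 without soma replicate 3. Tet1, which oxidises methylcytosine, was at 290.5, 414 and 413 CPM in PGCs and 48.9, 54.5 and 42.6 in soma (2.42 ± 0.12), and its relative Tet3 at 13.3, 6.52 and 10.2 in PGCs and 188, 192 and 177 in soma (-3.15 ± 0.15). The 2 oxidases thus lay on opposite sides. The maintenance methyltransferase Dnmt1 was higher by 0.85 ± 0.07, and its partner Uhrf1 was lower by read depth (-0.36 ± 0.08) and higher per cell (1.05 ± 0.37), where median centring turned the sign to -0.16. The de novo methyltransferase Dnmt3a was at 230.3, 121 and 189 in PGCs against 491, 473 and 465 in soma (-1.07 ± 0.15 by read depth, and 0.17 ± 0.37 per cell, without a call and below 0 after median centring).

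Genes of energy metabolism were taken as 2 lists. Of 29 core genes of oxidative phosphorylation, 20 were higher by read depth and 1 lower, beside 39.4% and 43.7% of all genes, with a median of 0.50. All 29 were higher per cell, beside 61.1% of all genes. Atp5b, the catalytic subunit of ATP synthase, was at 2526, 2677 and 2413 CPM in PGCs and 919, 884 and 891 in soma (1.31 ± 0.05). Glycolysis gave 6 higher and 8 lower of 17 by read depth (8 and 8 after median centring), with a median of -0.23, which is near the shares of all genes (39.4% and 43.7%). Per cell 10 were higher and 3 lower, beside 61.1% and 18.6%, or 12 and 3 without soma replicate 3. Ldha, which turns pyruvate into lactate, was at 31.2, 17.2 and 14.003 in PGCs and 386, 352 and 387 in soma, lower on both scales (-3.22 ± 0.17 and -2.63 ± 0.38). Pfkl, the liver type of phosphofructokinase, and Tpi1 were lower on both scales too, at -2.11 ± 0.08 and -1.84 ± 0.08 by read depth. The pyruvate kinase gene Pkm stood at 1919.8, 1991 and 1718 in PGCs and 836, 735 and 818 in soma, and the glucose transporter gene Slc2a3 at 130.3, 105 and 115 in PGCs and 25.6, 28.1 and 33.2 in soma. For all 5 named glycolysis genes with a call on both scales the groups did not overlap by read depth. The same held for 40.3% of all genes with PGCs above soma and 44.7% with PGCs below.

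Genes often used for normalization went in different directions, as all genes did. Of 16 such genes 8 were higher by read depth and 4 lower, beside 39.4% and 43.7% of all genes. Per cell 12 were higher and 2 lower, beside 61.1% and 18.6%, or 14 and 2 without soma replicate 3. Gapdh was at 357, 426 and 298 CPM in PGCs and 411, 366 and 396 in soma, with a read depth difference of -0.01 ± 0.10 that did not pass the threshold (0.24 after median centring) and a per-cell difference of 1.49 ± 0.37. Actb was at 1128, 1089.6 and 1021 in PGCs against 2206, 2138 and 2241 in soma, lower by read depth (-0.74 ± 0.05), and its per-cell value of 0.60 ± 0.39 did not pass the threshold, did so without soma replicate 3 (0.93), and turned to -0.61 with median centring. Tbp and Hprt were higher on both scales (0.89 ± 0.08 and 0.87 ± 0.10 by read depth). B2m, the light chain of class I antigen-presenting molecules, was at 6.69, 1.52 and 4.52 in PGCs against 80.9, 95.4 and 91.1 in soma, and the lysosomal enzyme gene Gusb at 13.0, 7.47 and 11.5 in PGCs against 112, 99.3 and 116 in soma. Both were lower on both scales, at -3.00 ± 0.44 and -1.76 ± 0.41 per cell.

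Regulators of cell death went both ways, as all genes did. By read depth 5 of 14 were higher and 8 lower, beside 39.4% and 43.7% of all genes. Per cell 7 were higher and 2 lower, beside 61.1% and 18.6%. Pmaip1, which encodes the killer protein Noxa, was at 230.2, 184 and 230 CPM in PGCs and 0.437, 2.98 and 1.52 in soma (5.81 ± 0.32). Bcl2, the founding survival factor, was at 0.478, 0.328 and 0.395 in PGCs and 55.3, 68.0 and 57.8 in soma (-4.40 ± 0.12). Groups lay far apart for both, in opposite directions. The effectors also parted: Bax was at 147, 188 and 157 in PGCs against 51.0, 44.5 and 46.0 in soma, and Bak1 at 1.15, 0.697 and 1.69 in PGCs against 35.1, 35.5 and 33.0 in soma. Survival genes Bcl2l1 and Mcl1 were at 0.26 ± 0.08 and -0.31 ± 0.06 by read depth.

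Transcripts of fetal Leydig cells were lower in PGCs as a group. All 12 measured genes were lower by read depth, with a median of -4.76, against 43.7% of all genes. Per cell 11 were lower, with a median of -6.15, against 18.6% of all genes. Cyp11a1, which cuts the side chain of cholesterol, was at 2.25, 0.410 and 0.565 CPM in PGCs and 1365, 983 and 1321 in soma. Hsd3b1, the next enzyme on the way to androgens, was at 0.143, 0.410 and 0.565 in PGCs and 673, 608 and 704 in soma, and Star, which carries cholesterol into mitochondria, at 1.24, 1.64 and 3.11 in PGCs and 640.5, 409 and 620 in soma. Insl3, the hormone of testis descent, had 1 read in the PGC libraries together and 60.3, 38.2 and 39.3 CPM in soma. Hsd3b1 and its near copy Hsd3b6 may share reads. Por, the electron donor of these enzymes in many cells, was the mildest at -0.92 ± 0.06 by read depth, and per cell it stood at 0.33 ± 0.37, a value called higher without soma replicate 3 (0.67). In bulk libraries, fewer cells of a type and less of its RNA per cell cannot be told apart, here and for every somatic list.

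Of 24 Sertoli genes 23 were lower by read depth and 21 per cell, beside 43.7% and 18.6% of all genes, with medians of -2.54 and -2.11. Without soma replicate 3, 19 were lower per cell. Nr5a1 and Gata4, transcription factors of the somatic gonad, were at 6.79, 4.35 and 5.99 (Nr5a1) and at 11.4, 5.37 and 5.76 (Gata4) CPM in PGCs and 577, 486 and 586 (Nr5a1) and at 347, 399 and 359 (Gata4) in soma. Cyp26b1, which degrades retinoic acid and so keeps germ cells from meiosis, was at 4.78, 3.16 and 2.77 in PGCs and 312, 396 and 367 in soma (-5.17 ± 0.14). Dhh, the hedgehog ligand of Sertoli cells, was at 7.93, 2.42 and 3.16 in PGCs and 53.3, 50.2 and 45.0 in soma. Dmrt1, a sex-determining factor that germ cells express too, was the 1 gene of the list higher in PGCs, at 175, 195 and 187 CPM in PGCs against 8.52, 7.10 and 9.52 in soma (3.57 ± 0.09).

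Stromal, contractile and matrix genes stayed with the soma. Of all genes 43.7% were lower in PGCs by read depth and 18.6% per cell. All 18 stromal and progenitor genes were lower by read depth (median -4.23) and 15 per cell, where 2 others were called higher without soma replicate 3, and all 8 contractile genes were lower on both scales. Pdgfra, a receptor of mesenchymal cells, was at 3.63, 0.861 and 3.39 CPM in PGCs and 960.3, 917 and 949 in soma, and the transcription factor gene Tcf21 at 0.382, 0.246 and 0.452 in PGCs and 217, 235 and 195 in soma. Acta2, the actin of smooth muscle, was at 1.15, 0.656 and 1.75 in PGCs and 287, 209 and 248 in soma. Of 26 matrix genes 24 were lower by read depth and 22 per cell, with a median of -5.25 by read depth. Per cell 2 were higher, or 4 without soma replicate 3. Elastin (Eln) was at 0.143, 0.123 and 0.113 CPM in PGCs and 341, 253 and 306 in soma (-7.59 ± 0.13), and the basement membrane collagen gene Col4a1 at 10.9, 7.67 and 12.3 in PGCs and 3243, 3138 and 3006 in soma (-6.47 ± 0.10). The fibrillar collagen gene Col3a1 was at 5.54, 2.71 and 20.9 CPM in PGCs, highest in replicate 3, and at 4296, 3764 and 4225 in soma. Fibronectin (Fn1) and nidogen 2 (Nid2) were the exceptions, at 931, 955 and 1072 (Fn1) and at 329.6, 477 and 349 (Nid2) CPM in PGCs against 987, 1041 and 1032 (Fn1) and at 333, 299 and 346 (Nid2) in soma. Fn1 stood at 0.06 ± 0.06 by read depth (-0.30 after quantile normalization) and was higher per cell (1.57 ± 0.38), and Nid2, whose CPM overlapped between the groups, was higher by 0.28 ± 0.10 (limma, adjusted p = 0.0314).

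Blood and vessel cells were in the soma fraction. All 8 erythroid genes were lower by read depth and per cell, beside 43.7% and 18.6% of all genes, at a read depth median of -5.86. Summed, they made up 3429.8, 8600.4 and 4184 CPM in soma replicates 1 to 3 and 4.54, 5.74 and 10.6 in the PGC libraries. The embryonic globin Hbb-y was at 2369, 6747 and 3097 CPM in soma, highest in replicate 2, and at 2.01, 4.43 and 7.57 in PGCs. Hemgn, a nuclear protein of blood precursors, had 0 reads in all PGC libraries and was at least 449.6-fold lower there. All 15 macrophage genes were lower by read depth and 13 per cell, with Csf1r, the receptor for macrophage growth factor, at 0.430, 0 and 0 CPM in PGCs against 53.1, 44.9 and 69.9 in soma. Endothelial genes gave 10 lower and 1 higher of 13 by read depth, and 9 lower and 2 higher per cell. Kdr, the vessel growth factor receptor, was at 0.382, 0.328 and 0.282 in PGCs against 30.8, 60.5 and 34.8 in soma, while Pecam1, an adhesion protein that germ cells also carry, was at 87.4, 114 and 92.1 in PGCs against 13.1, 20.007 and 7.45 in soma (2.30 ± 0.21).

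Lists of neighbouring tissues were small and depended on the scale. Beside them, 43.7% of all genes were lower by read depth and 18.6% per cell. Of 7 coelomic epithelium genes 6 were lower by read depth and Lrrn4 was higher (1.51 ± 0.17), while per cell 3 were lower, or 1 without soma replicate 3. Of 7 mesonephric genes 5 were lower on both scales (4 per cell without soma replicate 3), and Lhx1 and Ret were higher by 3.04 ± 0.16 and 4.03 ± 0.26. Summed, the mesonephric genes were higher in PGCs, at 133, 138 and 173 CPM against 83.8, 74.7 and 63.9 in soma. Lhx1, a transcription factor, was at 48.8, 78.3 and 64.6 CPM in PGCs against 4.15, 3.11 and 2.50 in soma. The pregranulosa list, of supporting cells of the ovary, gave 6 lower of 8 and none higher by read depth (1 higher after median centring). Per cell 4 were lower and 1 higher, or 3 and 2 without soma replicate 3. Its defining gene Foxl2 was low in both fractions (0.335, 0 and 0.395 CPM in PGCs, 1.09, 0.766 and 1.74 in soma), and Rspo1 stood at 0.20 ± 0.16.

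Signals between the 2 fractions were laid out as ligand and receptor. Of 22 ligand genes 17 were lower in PGCs by read depth and 3 higher, beside 43.7% and 39.4% of all genes, with a median of -2.85. Per cell 15 were lower and 5 higher, beside 18.6% and 61.1%, or 14 and 6 without soma replicate 3. Kitl, the survival and homing factor, was at 6.84, 3.36 and 4.07 CPM in PGCs and 70.1, 70.5 and 69.9 in soma, with its receptor Kit higher in PGCs by 1.19 ± 0.14. The chemokine gene Cxcl12 was at 9.18, 15.3 and 9.09 in PGCs and 811, 801 and 786 in soma, and its receptor gene Cxcr4 was at 13.4, 19.9 and 11.7 in PGCs and 16.8, 11.5 and 16.1 in soma. Kitl and Cxcl12 were lower in PGCs on both scales and Kit higher, while Cxcr4 had no call by read depth (0.08 ± 0.15) and was higher per cell (1.63 ± 0.46). Gdnf, the growth factor of spermatogonial stem cells, was at 1.86, 0.574 and 0.565 in PGCs and 48.8, 48.2 and 38.1 in soma. Its signalling receptor gene Ret was at 81.0, 58.6 and 106 in PGCs and 2.51, 0.484 and 1.74 in soma, and the binding co-receptor gene Gfra1 at 2.10, 0.656 and 1.64 in PGCs and 19.6, 7.74 and 8.75 in soma. Ret was therefore high in PGCs (4.03 ± 0.26), and Gfra1 was lower there (-1.68 ± 0.26).

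The genes of some other pairs were lower in PGCs by read depth. Dhh has Ptch1 as receptor and Gli1 as target. Ptch1 was at 141, 135 and 154 CPM in PGCs and 299.9, 315 and 291 in soma, with no call per cell but called higher without soma replicate 3 (0.83, a sign that median centring of the 6 libraries turned to -0.66), and Gli1 at 21.2, 7.59 and 15.1 in PGCs and 273, 322 and 292 in soma. The insulin-like growth factor gene Igf2 was at 13.7, 8.29 and 19.6 in PGCs and 2078, 2326 and 2309.6 in soma, and its receptor gene Igf1r at 156, 108 and 173 in PGCs and 283, 286 and 276 in soma. Igf1r had no call per cell with all 6 libraries. Pdgfrb, a receptor of mural and stromal cells, was at 1.58, 0.492 and 1.75 in PGCs and 429, 465 and 467 in soma. Of the growth factors, the 3 ligand genes higher in PGCs by read depth were Nodal (3.64 ± 0.20), Bmp4 (0.84 ± 0.11) and Bmp7 (0.48 ± 0.09). Activin subunit genes Inhba and Inhbb were lower by 5.72 ± 0.17 and 2.93 ± 0.16, and the activin receptor gene Acvr2b was higher by 1.10 ± 0.12. Of 27 receptor genes, 4 were higher and 21 lower by read depth, beside 39.4% and 43.7% of all genes. Per cell 10 were higher and 11 lower, beside 61.1% and 18.6%, or 14 and 10 without soma replicate 3.

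Of 15 retinoic acid genes, 11 were lower by read depth and 1 higher (10 and 3 after median centring), beside 43.7% and 39.4% of all genes. Per cell 7 were lower and 4 higher, beside 18.6% and 61.1%, or 8 and 6 without soma replicate 3. The synthetic enzyme genes Aldh1a1 and Aldh1a2 were at 34.7, 13.454 and 19.9 (Aldh1a1) and at 24.5, 19.976 and 25.7 (Aldh1a2) CPM in PGCs against 659.8, 691 and 714 (Aldh1a1) and at 139, 105 and 119.8 (Aldh1a2) in soma. Receptor genes divided: Rarb was at 0.191, 0 and 0.339 in PGCs against 27.5, 13.4 and 19.7 in soma, while Rara and Rarg stood at -0.01 ± 0.06 and 0.24 ± 0.15 by read depth with no call. Rxrb was the 1 gene higher by read depth (0.48 ± 0.07).

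**Figure D5:**
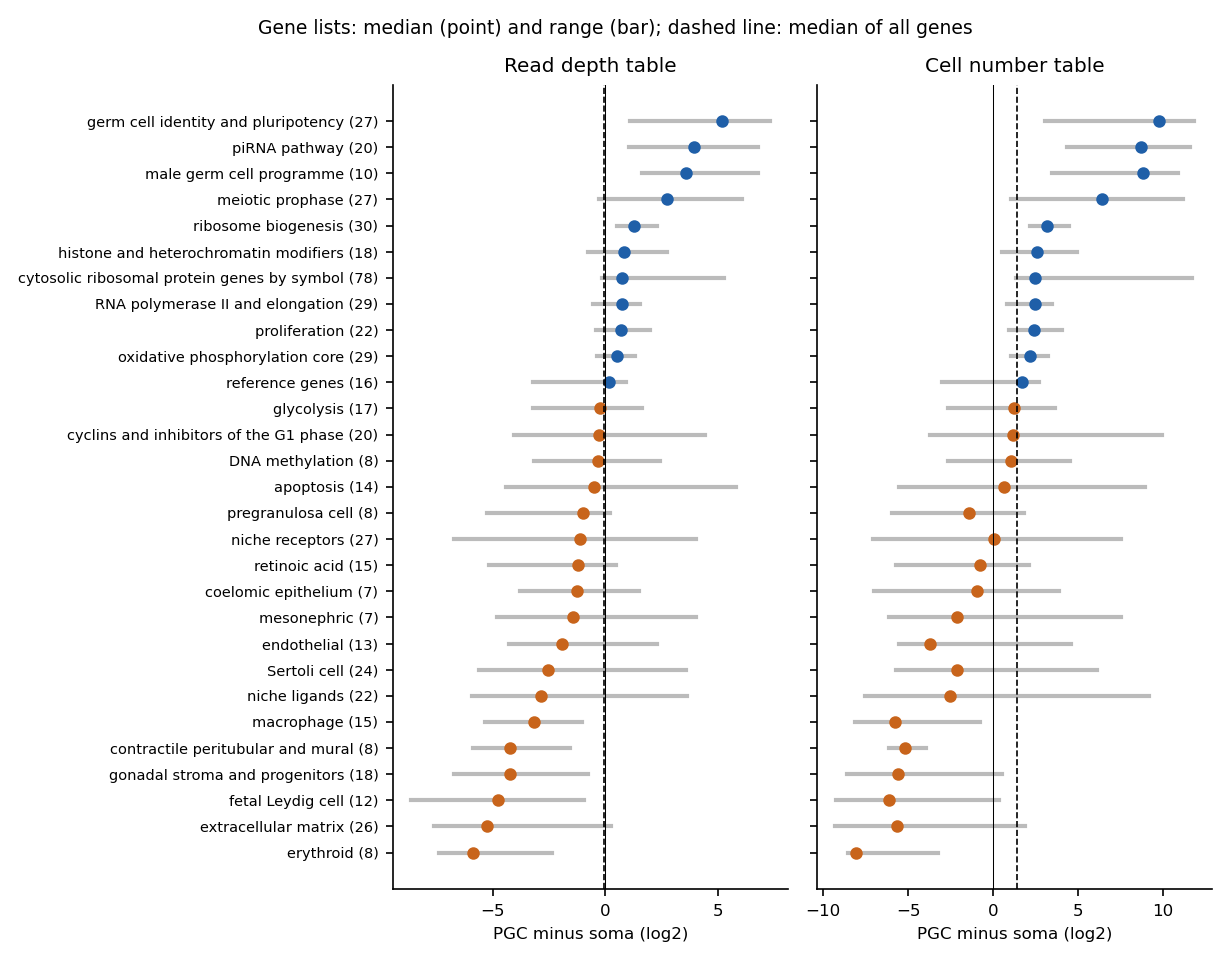
Median (point) and range (grey bar) of the difference between male PGCs and male soma (log2) over the measured genes of 29 lists, with the number of genes in brackets, by read depth (left) and per cell (right). Blue points lie above and orange points below the median of all genes (dashed line, -0.06 and 1.42); the germ cell lists are at the top and the erythroid, matrix and Leydig lists at the bottom.

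Among called genes without overlap between the groups, unnamed gene models aside, the largest per-cell rises were Sohlh2, Zfp42, Tdh, Rpl39l, Tuba3b, Tex13, Tdrd12 and Mov10l1. Sohlh2, a transcription factor of spermatogonia and oocytes, was at 116, 168 and 134 CPM in PGCs against 0.218, 0 and 0.163 in soma. Tdh, the threonine dehydrogenase of mouse pluripotent cells, was at 111, 199.6 and 119 in PGCs against 0.109, 0.121 and 0.0544 in soma. By read depth the largest were Dppa3, Pou5f1, Dppa5a, Sall4, Dazl, Dppa4, Mov10l1 and Tdrd5, from 7.32 ± 0.23 down to 6.79 ± 0.19. Read depth values draw low genes together, so that table favours abundant transcripts: among the lowest 25% of genes by level its differences moved by 0.348 for each log2 unit of the voom difference in reads, and in the highest 25% by 0.762.

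On the same basis, the largest falls per cell were Sostdc1, Eln, Crhr1, Nrn1, Hsd3b1, Lamc3, Tacr3 and Fam19a2. Sostdc1, a secreted inhibitor of BMP and Wnt signals, had 0 reads in the 3 PGC libraries and 75.3, 56.3 and 74.3 CPM in soma, at least 1442-fold lower in PGCs. Crhr1, the receptor for corticotropin-releasing hormone, had 0 reads in PGCs and 46.4, 41.6 and 54.8 in soma, at least 999.6-fold lower. By read depth the 8 were Cyp17a1, Cyp11a1, Hsd3b1, Eln, Robo2, Ednra, Hbb-y and Slc4a1. Robo2, a guidance receptor, was at 0.335, 0.0820 and 0.395 CPM in PGCs and 345, 375 and 327 in soma, and the endothelin receptor gene Ednra at 0.239, 0.287 and 0.0565 in PGCs and 296, 323 and 288 in soma. These rises and falls were drawn only from called genes whose groups did not overlap, so their lack of overlap is no result.

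The size of the difference changed with expression level. With the genes in 4 equal bins by mean CPM, from the lowest to the highest, the per-cell median was 0.31, 1.19, 1.63 and 1.93, and the read depth median was -0.54, -0.21, 0.09 and 0.33. In the lowest bin 38.0% of genes were higher per cell and 31.5% lower, and in the highest bin 78.4% were higher and 10.8% lower. The difference thus moved towards PGCs with rising expression level on both scales. By chromosome, the median of 481 genes on X was 1.07 per cell and -0.31 by read depth, against 1.43 and -0.05 for 12287 autosomal genes. Genes on X took 2.58% to 2.78% of the reads in the PGC libraries and 3.46% to 3.56% in soma, with no overlap.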

How the data were processed

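RNA was sequenced from sorted male germ cells and male soma of E13.5 gonads, with 3 libraries in each group. Per the submitters' processing notes, the build was mm10, statistics packages were limma 3.28.14 and edgeR 3.14.0 beside DESeq2 1.12.3 under R 3.3.0, and reads passed through TopHat2 2.0.9, Trim Galore 0.4.0 and HTSeq 0.6.1p1. The authors deposited log2 expression for 12845 genes in 12 columns, in a table labelled CNN, read here as cell number normalized with the spike-in, and in a read depth table made by a transform that no source here states. Only the 6 male columns were used. The strand setting of the counting is not given, so overlapping and antisense genes cannot be told apart.

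Each cell number value equalled log2 of (reads + 0.5) over an effective library size, and 100% of values gave whole reads within 0.001. CPM were computed from these reads. Both tables were fitted with limma 3.58.1 in R 4.3.3 (group means, moderated with an intensity trend), with Benjamini-Hochberg adjustment over all genes and a threshold of 0.05. The script was tested on simulated data. Library medians were compared by an exact two-sided permutation test. The members and gene lists were chosen with earlier results of these data known. Named genes include the core genes of each list and its members with most reads or the largest read depth differences. The 8 largest rises and falls in each table were taken from called genes whose groups did not overlap. Also named are the genes with most reads among those called in opposite directions or in neither table. Other list members named as exceptions or examples were chosen after their values were seen. Genes with near copies, such as the globins, Dppa5a, Tuba3b, Rhox6 and Rhox9, may share reads. Gene positions are from GENCODE vM21 on GRCm38.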

Additional observations from a re-analysis of the deposited data

How the results depend on the processing

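The difference in library medians per cell ranged from 1.04 to 1.52 with single libraries left out. Leaving out single libraries gave 7040 to 9062 genes higher and 2174 to 2368 lower per cell, and 4806 to 5072 higher and 5366 to 5627 lower by read depth. Without the 25% of genes lowest in mean value, 6852 genes were higher and 1002 lower per cell, and 4345 higher and 3612 lower by read depth, where the balance turned (median 0.10); the cause was not tested. Asking for a log2 difference of at least 1 left 1908 higher and 3244 lower by read depth. Median centring, chosen after seeing the data, gave 4771 lower per cell. Voom on the recovered reads called 8080 higher and 2417 lower per cell, and 4682 higher and 6002 lower by read depth.

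Same-numbered PGC and soma libraries showed little shared deviation (r from -0.0007 to 0.0511 across genes, beside -0.0750 to 0.0427 for different numbers). The labels do not say whether same-numbered libraries share embryos. Deviations in different cell types cannot decide it, so pairing stays unknown. With a replicate block 7537 genes were higher and 2279 lower per cell, 5051 and 5595 by read depth, and the difference in medians was 1.21 ± 0.327 (exact p = 0.25).

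Median centring of the cell number table turned the sign of 12 of the 117 genes followed: Actb -0.61, Cdkn1b -0.0394, Dnmt3a -1.04, Fgfr1 -1.16, Hk2 -0.28, Mki67 -0.11, Ptch1 -0.66, Uhrf1 -0.16, Actg1 -0.01525, Calr -0.42, Ftl1 -0.37 and Hspa5 -0.15. In the read depth table it turned Gapdh to 0.24, Ctnnb1 to 0.0428 and Maged1 to 0.0626, and quantile normalization turned Crabp1 to 0.0354, Fn1 to -0.30 and Fst to 0.59. The cause of these turns beyond the change of scale was not tested. Soma replicate 1 had the fewest reads, 9154062, and limits low genes most.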

Other observations

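Single soma libraries held transcripts that the other soma libraries had at few reads. In soma replicate 3, the neuroendocrine granule gene Chgb stood at 36.8 CPM against 0.655 and 0.0807 in replicates 1 and 2. Dbh and Th, enzymes of catecholamine synthesis, stood at 0, 0.161 and 18.8 CPM (Dbh) and at 0.328, 0 and 11.6 CPM (Th) in soma replicates 1, 2 and 3. In soma replicate 1, the kidney progenitor gene Six2 stood at 42.9 CPM against 0.282 and 0.435, and Sall1, a transcription factor of the same cells, at 38.2, 3.87 and 4.79 CPM over the 3 soma libraries. These genes were named for their gap between soma libraries in the read depth table. Their source was not tested.

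The PGC libraries also differed for Abcc10, a membrane transporter gene called on neither scale, at 65.2, 4.14 and 3.84 CPM in PGCs against 19.99, 25.7 and 24.6 in soma.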
